A study of Homo sapiens with 2 samples.

Results

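DNA double-strand break repair genes, 46 in all, were examined for binding of DEK, an abundant chromatin protein, by chromatin immunoprecipitation sequencing in 786-O, an established human renal carcinoma line. The 46 were given as a list of gene names, and all 46 matched a protein-coding gene among the 19974 on chromosomes 1 to 22 and X of the RefSeq gene table (GRCh38.p14). A peak belonged to a gene when it overlapped the annotated span of the gene plus 1 kb on each side. It was placed at an end when it overlapped the 1 kb on either side of an annotated end, and otherwise in the body. The data are 2 replicate libraries of a single group, 786-O cells of genotype WT, labelled negative control and Cas9, with DEK entered as the antibody. Whether negative control describes the cells or the precipitation is unclear from the labels, and the libraries are read here as DEK precipitations of control cells. Neither edited cells nor an input library were analysed here, and separate cultures are not named in the labels, so the spread between the replicates may be technical.

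Cells repair a broken DNA duplex by several routes. In homologous recombination the ends are cut back by nucleases and the sister chromatid serves as the template, whereas in non-homologous end joining the Ku heterodimer holds the ends until they are sealed by a ligase. A signalling cascade from ATM through MDC1, RNF8 and RNF168 marks the chromatin around the break with ubiquitin, which the BRCA1-A complex reads and trims. The Fanconi proteins act at crosslinks between the strands, whose removal passes through a break. DEK binds histones and DNA of distorted shape and is itself known for links to DNA repair. The measurements below concern where DEK lay along the repair genes, not repair itself, and expression of these genes was not measured in these libraries.

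Where peaks of both libraries overlapped, by 1 bp or more, they were merged into a shared region, 12590 in all. A shared region lay at an end of 5 of the 46 genes (10.9%, 95% Wilson interval 4.73 to 23.04), against 7.53% of all protein-coding genes. These were BABAM1, BRCA1, MDC1, POLQ and FANCG. Another 8 genes (17.4%, interval 9.09 to 30.7) had shared regions in the body only, against 16.9% of all protein-coding genes. They were BABAM2, RAD51B, RAD51C, MRE11, TP53BP1, XRCC4, XRCC5 and NHEJ1. Both backgrounds lay inside the intervals. The intervals are wide and no set test was made, so the counts show neither a difference from protein-coding genes at large nor its absence. These backgrounds are not matched for gene span, and repair genes are longer. Within each class of span, given below, the body-only share of repair genes was under its background, which lay inside the interval. The list was drawn up with the high rank of BABAM1 in these data already known. Without BABAM1, 4 of 45 genes (8.89%) had a shared region at an end. With windows of 3 kb in place of 1 kb the count was 6 of 46 (13.0%), UIMC1 added, against 13.8%, so the share of repair genes was then the lower.

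**Figure D1:**
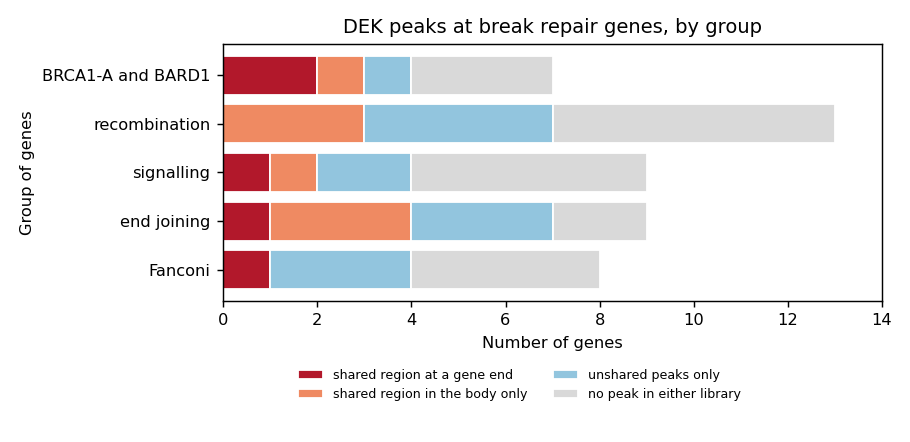
Number of genes (horizontal axis) in each of 5 groups of break repair genes, divided by where DEK peaks were found. Shared regions at a gene end (dark red) were found in the BRCA1-A, signalling, end joining and Fanconi groups, and no gene of the recombination group had one. Over all protein-coding genes 7.53% had one, and no difference between the groups was tested. The regions of BRCA1 and FANCG lay closer to another gene.

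By group, of the 7 genes of the BRCA1-A complex with BARD1, 2 had a shared region at an end and 1 in the body. Of the 2 at an end, that of BRCA1 lay closer to another gene. The 9 end-joining genes had 1 and 3, the 9 signalling genes 1 and 1, and the 13 recombination genes 0 and 3. The 8 Fanconi genes had 1 at an end, which lay closer to another gene, and 0 in the body. With groups of 7 to 13 genes these counts are descriptions, and no difference between the groups was tested. No peak of either library was found in 20 of the 46 genes. In the BRCA1-A group these were BRCC3, ABRAXAS1 and BARD1, in the recombination group BRCA2, PALB2, XRCC2, RAD54L, RBBP8 and RAD50, and in the signalling group ATR, CHEK1, CHEK2, RNF8 and RIF1. In the end-joining group they were LIG4 and PARP1, and in the Fanconi group FANCA, FANCD2, FANCE and FANCI. Absence from the lists means only that no signal there reached the caller's threshold. A peak of at least 1 library was present in 26 of the 46 genes (56.5%), against 43.4% of protein-coding genes. By library it was 18 genes (39.1%) against 32.7% in replicate 1 and 23 genes (50%) against 37.9% in replicate 2. Peaks of a single library alone accounted for 11 genes (23.9%), against 16.3%. Repair genes are longer, with a median span of 74.4 kb against 24.2 kb, and these shares were not split by span. The part of gene length in them was not tested.

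The libraries held 19015 and 24457 peaks on the chromosomes analysed, of which 47 and 62 fell in the 46 genes. Fold enrichment is the authors' linear ratio of the summit pileup to the local background. Whether that background came from the same library or from a control was not given in the sources used here. In the repair genes fold enrichment ranged from 2.50 to 7.95 in replicate 1 and from 2.395 to 7.36 in replicate 2. The pileup at the summit, a fragment count recovered from the deposited values, had a median of 18 and 18.5 in these peaks, and with so few fragments the fold enrichment of a peak has a wide counting error. Of the repair-gene peaks 27 of 47 in replicate 1 (57.4%, 95% Wilson interval 43.3 to 70.5) and 27 of 62 in replicate 2 (43.5%, 31.9 to 55.9) were shared. Over all peaks the shares were 67.8% and 52.2%, and both lay inside these intervals.

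BABAM1, a subunit of the BRCA1-A complex also known as MERIT40, had the strongest signal of the 46 genes. Its shared region (chromosome 19, 17266919 to 17267547) had a fold enrichment of 7.95 in replicate 1 and 7.36 in replicate 2 (mean 7.65 ± 0.413 SD, n = 2), at percentiles 98.0 and 97.1 of all shared regions. The summit held 30 fragments in each library (exact 95% Poisson interval 20.2 to 42.8, counting error only) over backgrounds of 2.90 and 3.21, and −log10 q was 16.1 and 15.01. The summits stood 157 bp and 127 bp upstream of the only annotated start of the gene. No end of another gene lay within 1 kb of the region. The RefSeq sequence around that start (GRCh38.p14, chr19:17267193-17267472, plus strand, 250 bases before the start and 30 from it on) lies wholly within the region and is shown because it carries the summits. Capitals mark matches to a fixed set of promoter motifs:

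BABAM1: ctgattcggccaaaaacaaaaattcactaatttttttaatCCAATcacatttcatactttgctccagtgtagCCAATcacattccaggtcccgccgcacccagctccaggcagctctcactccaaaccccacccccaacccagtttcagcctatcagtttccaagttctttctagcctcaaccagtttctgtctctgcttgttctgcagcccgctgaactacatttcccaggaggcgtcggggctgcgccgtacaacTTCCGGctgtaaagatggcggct

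The motifs were searched on both strands. They were CCAAT, known for the factor NF-Y, then GGGCGG for SP1 and CCGGAA for ETS factors. To these were added TGACGTCA for CREB, then GGCGGGAA for E2F, then CACGTG for E-box proteins and the NRF1 core motif. Matches to the SP1 motif can share bases with those to the E2F and ETS motifs. The BABAM1 window held CCAAT at 210 and 178 bases upstream of the start and CCGGAA, on the minus strand, from 7 bases downstream. Of the 22132 windows of 300 bases around starts of protein-coding genes, 34.6% held CCAAT and 21.2% CCGGAA. Any GGGCGG was held by 56.3%. The matches are letters in a window, and no factor was measured.

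BRCA1, the ubiquitin ligase that pairs with BARD1 and joins the BRCA1-A complex through ABRAXAS1, had its shared region at the outer of its 2 annotated starts. The region (chromosome 17, 43170291 to 43170784) had a fold enrichment of 3.64 in replicate 1 and 3.79 in replicate 2 (3.72 ± 0.109, SD, n = 2). At a mean percentile of 31.3 it was among the weaker shared regions by fold enrichment. Pileups were 27 and 30, over backgrounds of 6.69 and 7.17. Its −log10 q was 5.50 and 6.64, above the medians of all shared peaks, 5.085 in replicate 1 and 5.478 in replicate 2. The summits were 130 bp and 156 bp upstream of the outer start at 43170327. The same region was closer to NBR1, an autophagy receptor gene read in the opposite direction, whose start at 43170409 lay 61 bp from the midpoint of the summits. Ends of the pseudogene BRCA1P1 and of the long non-coding RNA genes LOC101929767 and LOC124900391 also lay within 1 kb. Replicate 2 had a further unshared peak 863 bp upstream of the outer start (3.82-fold) and an unshared peak in the body (4.32-fold), 40579 bp downstream of the inner start. At the inner start, 43125364, neither library had a peak within 1 kb.

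The windows upstream of these starts resemble each other, as they belong to a known duplication of this stretch of chromosome 17. Local alignment of the 300-base windows gave 137 identical bases over 155 aligned positions (88.4%), with 17 mismatches and 1 gap. The part of the alignment that ends at most 30 bases after the outer start is shown because it bears on where reads from this region can align. It is read on the minus strand at chr17:43170298-43170431 for the outer start, wholly inside the shared region, and at chr17:43125480-43125614 for the inner start, outside any shared region. Capitals mark bases that differ or face a gap:

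BRCA1 outer start: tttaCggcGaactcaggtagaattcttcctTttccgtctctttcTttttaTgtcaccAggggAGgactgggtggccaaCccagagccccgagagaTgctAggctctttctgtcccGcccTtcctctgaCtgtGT

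BRCA1 inner start: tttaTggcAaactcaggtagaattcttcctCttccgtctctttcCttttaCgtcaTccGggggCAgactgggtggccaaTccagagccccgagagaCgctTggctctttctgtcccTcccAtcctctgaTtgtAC

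The printed stretches share 118 bases and have 16 mismatches. The handling of reads that fit more than 1 place was not given in the sources used here, and its part in this peak was not tested.

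POLQ encodes the polymerase of theta-mediated end joining, a route that pairs short matching stretches at the ends. Its shared region (chromosome 3, 121545964 to 121546223) overlapped the only annotated start, with summits 144 bp and 134 bp upstream. Fold enrichment was 4.34 in replicate 1 and 5.38 in replicate 2 (4.86 ± 0.734, SD, n = 2), and pileups were 14 and 17. The mean percentile was 73.9, below BABAM1 and above MDC1, BRCA1 and FANCG. The sequence around the start (chr3:121545959-121546238, minus strand) has 260 of its 280 bases in the region, and capitals again mark the motifs:

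POLQ: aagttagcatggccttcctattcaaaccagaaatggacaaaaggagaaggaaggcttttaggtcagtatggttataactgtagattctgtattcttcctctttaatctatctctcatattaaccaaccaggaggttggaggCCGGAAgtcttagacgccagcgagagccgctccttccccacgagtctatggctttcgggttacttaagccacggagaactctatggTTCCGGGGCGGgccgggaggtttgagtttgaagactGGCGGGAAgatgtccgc

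This window held CCGGAA from 109 bases upstream and, on the minus strand, from 23 bases upstream, where it overlaps a GGGCGG that starts 18 bases upstream. It also held GGCGGGAA from 13 bases downstream of the start, a motif found in 3.99% of all windows.

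MDC1, the mediator that binds phosphorylated histone H2AX beside a break and recruits RNF8, had a shared region just upstream of its only annotated start (chromosome 6, 30717400 to 30717800). Its nearer edge was 119 bp from the start. Fold enrichment was 4.15 in replicate 1 and 4.12 in replicate 2 (4.14 ± 0.0182, SD, n = 2), the closest pair of values among the 27 shared regions. The summits lay 400 bp and 244 bp upstream and so differed by 156 bp. Pileups were 18 and 20. Replicate 2 had an unshared peak in the body of 3.89-fold. The window at the start (chr6:30717252-30717531, minus strand) has 132 of its 280 bases, the upstream part, in the region:

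MDC1: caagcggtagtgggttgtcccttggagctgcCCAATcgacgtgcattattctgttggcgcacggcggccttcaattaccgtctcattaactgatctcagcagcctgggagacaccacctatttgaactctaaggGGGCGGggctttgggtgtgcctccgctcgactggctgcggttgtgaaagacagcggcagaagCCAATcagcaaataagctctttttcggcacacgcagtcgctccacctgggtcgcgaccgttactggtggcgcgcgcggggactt

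It held CCAAT from 219 and from 54 bases upstream and GGGCGG from 116 bases upstream. Of these matches, only the CCAAT at 219 lies inside the region.

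FANCG, a subunit of the Fanconi core complex, was counted through its end of lower coordinate, where transcription of this minus-strand gene stops. The region (chromosome 9, 35072717 to 35072900) lay 939 bp from that end, the only one of the 5 near the limit of 1 kb, and its summit was 1073 bp away. It stood 141 bp upstream of the start of VCP, the gene of a segregase that extracts proteins from chromatin and membranes. Fold enrichment was 3.73 and 3.89 (3.81 ± 0.114, SD, n = 2) at pileups of 16 and 15. FANCG itself had no peak at its own start in either library. The nearest shared region that just missed a repair gene lay 1351 bp beyond the lower end of UIMC1. The window at the VCP start (chr9:35072596-35072875, minus strand) is shown because it, and not the FANCG start, carries the region, which covers 159 of its 280 bases:

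VCP: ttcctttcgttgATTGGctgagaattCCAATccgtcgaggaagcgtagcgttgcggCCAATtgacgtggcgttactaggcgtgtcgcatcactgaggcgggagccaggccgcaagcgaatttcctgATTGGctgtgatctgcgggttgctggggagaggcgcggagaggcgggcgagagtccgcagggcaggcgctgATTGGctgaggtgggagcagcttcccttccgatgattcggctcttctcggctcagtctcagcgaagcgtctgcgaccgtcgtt

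It held 5 matches to CCAAT on the strands together, at 238, 224, 194, 124 and 53 bases upstream. The match at 53 lies outside the region. At least 3 such matches were found in 3.61% of all windows.

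**Figure D2:**
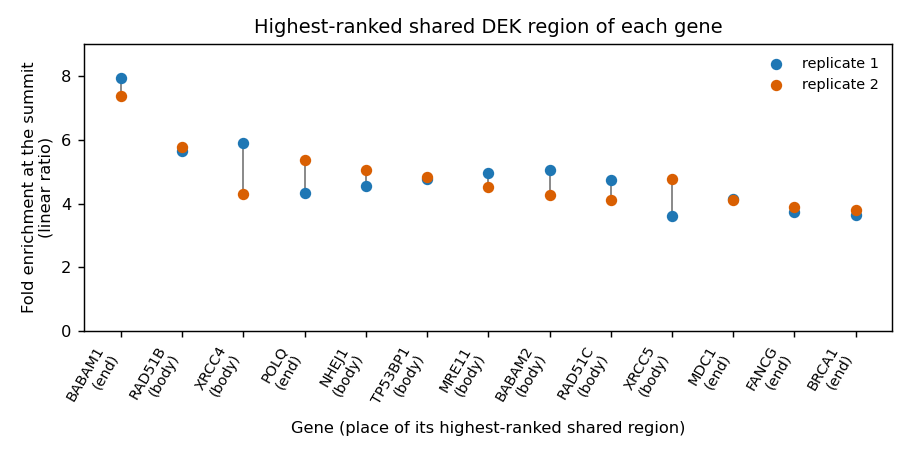
Fold enrichment at the summit (vertical axis, linear ratio) of the highest-ranked shared region of each of the 13 genes that had one, with 1 point per replicate and a line between them. BABAM1 lies above the other genes in both replicates, at 7.95 and 7.36, and XRCC4 shows the widest spread, from 4.29 to 5.91.

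Of the 5 genes with a region at an end, BABAM1, MDC1, POLQ and BRCA1 thus had it at an annotated start. For BRCA1 this was the outer of its 2 starts alone. The region there lay closer to the start of NBR1, and the inner start had no peak within 1 kb. Starts were given for 42 of the 46 genes, all but NBN, XRCC5, PRKDC and FANCI. A shared region within 1 kb of a start was found in 4 of these 42 (9.52%), against 6.62% of the 15812 protein-coding genes with a given start. The windows of 300 bases at the starts of these 4 genes that overlapped a region had a median GC content of 51.7% (range 50.3 to 57.3), and the 58 windows of repair genes that overlapped none had 64.8%. Over all protein-coding genes the medians were 59.3% for windows with a shared region and 62.7% without. The 4 windows rest on 4 regions, and the difference was not tested.

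Peaks of 1 library alone were seen at the starts of 10 further genes. Replicate 1 had them at MRE11, ATM, XRCC4 and UIMC1, and replicate 2 at XRCC3, RAD52, NHEJ1, FANCF, RNF168 and FANCC. Together 14 of 42 genes (33.3%, 95% Wilson interval 21.01 to 48.5) had a peak of at least 1 library at a start, against 16.0% of protein-coding genes. Those without a shared region, 10 of 42 (23.8%, 13.5 to 38.5), compare with 9.41%. Both backgrounds lay below the intervals, which treat genes as independent and rest mostly on peaks that the other library lacked. The list was drawn up with earlier results of these data known, and BABAM1 is among the 14. The intervals are therefore descriptions and not a test of enrichment at starts. In single libraries a start peak was found at 8 and 10 of the 42 genes, against 10.1% and 12.6% of protein-coding genes. Among the 50 other genes of the pathway with a given start the shares were 28% with any start peak and 20% with unshared ones only. Repair genes had 1.48 annotated starts each on average and all protein-coding genes 1.40. These 10 peaks rested on 9 to 21 fragments, and none had a peak of the other library nearer than 8.73 kb. Other genes beside these 10 peaks were not looked up, so a peak may lie closer to the start of another gene.

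XRCC3, a recombination gene, had the strongest of these peaks, 5.82-fold in replicate 2 with its summit 100 bp upstream of the start and 17 fragments. MRE11, the nuclease that begins resection with RAD50 and NBN, had a peak of 5.43-fold in replicate 1 at 68 bp upstream, also with 17 fragments. That start lies inside the annotated span, so the peak counted as body by gene ends. RAD52, which anneals single strands, had 4.73-fold in replicate 2 at 61 bp downstream of its inner start. NHEJ1, the XRCC4-like factor XLF, had 4.13-fold at 174 bp upstream in replicate 2, and ATM, the kinase that starts the signalling cascade, 3.89-fold at 289 bp upstream in replicate 1. The Fanconi core subunit FANCF had 3.47-fold at 88 bp upstream in replicate 2 and XRCC4, the partner of LIG4, 3.41-fold at 58 bp downstream in replicate 1, on 10 and 9 fragments. UIMC1, RNF168 and FANCC had summits 752, 841 and 991 bp downstream of a start.

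**Figure D3:**
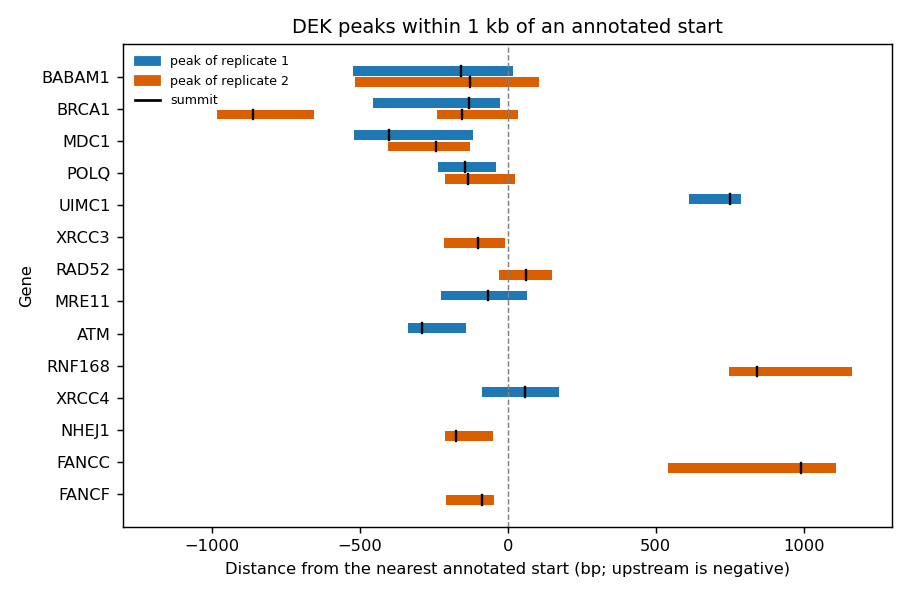
Peaks of replicate 1 (blue) and replicate 2 (orange) within 1 kb of an annotated start, drawn by distance from the nearest start in bp with upstream to the left and a black line at each summit. In BABAM1, MDC1 and POLQ both libraries have a peak just upstream of the start, as in BRCA1 at its outer start. The other 10 genes have a peak of a single library.

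The bodies of the repair genes held 22 of the 27 shared regions, and 15 of these lay in RAD51B and BABAM2. These genes make up 28.3% of the summed span of 4.64 Mb. The 46 genes had 5.82 shared regions per Mb of span, against 6.40 over all protein-coding genes, and 3.605 without RAD51B and BABAM2. At least 5 shared regions were found in 2 of the 46 genes (4.35%) and in 1.18% of protein-coding genes.

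RAD51B, a recombination gene of 863 kb on chromosome 14 (67819779 to 68683096), held 15 peaks of replicate 1 and 14 of replicate 2, which shared 8 regions. Fold enrichment in these regions ranged from 3.81 to 5.70 as the mean of the libraries. All 8 lay from 353 kb of the span onwards. In the first 300 kb each library had 1 peak, both unshared. The highest-ranked region (68210821 to 68211268) had 5.64 in replicate 1 and 5.77 in replicate 2 (5.70 ± 0.0884, SD, n = 2), a mean percentile of 91.4 and the second of the 46 genes after BABAM1. It belonged to a series of 4 regions between 68172629 and 68232972, which also had means of 3.92, 4.73 and 5.27. Pileups in the gene were low, 12 to 25 fragments in its shared regions, over backgrounds of 2.48 to 4.29. Among the 109 protein-coding genes with a span between 0.8 times that of RAD51B and that of RAD51B divided by 0.8, itself included, the number of shared regions ranged from 0 to 15 with a median of 1, and 5 genes had 8 or more.

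BABAM2, a further subunit of the BRCA1-A complex also called BRE, has a span of 450.2 kb on chromosome 2 (27888709 to 28338901). It held 9 peaks of replicate 1 and 17 of replicate 2, which shared 7 regions. Their mean fold enrichment was lower than in RAD51B, from 3.11 to 4.65, with a median of 3.77 against 4.92. The highest-ranked region (28117020 to 28117564) had 5.04 and 4.26 (4.65 ± 0.555, SD, n = 2). The regions at 28274343 to 28275335 and 28276201 to 28276466 stood over high local backgrounds, 11.53 to 12.55, so pileups of 34 to 53 gave only 2.69- to 3.99-fold. The start of BABAM2 had no peak within 1 kb. The nearest in the gene, of replicate 2 alone, was 1263 bp downstream of a start, at 3.596-fold. Of the 338 protein-coding genes with a span between 0.8 times that of BABAM2 and that of BABAM2 divided by 0.8, itself included, 21 had 7 or more shared regions, and the median was 1.

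**Figure D4:**
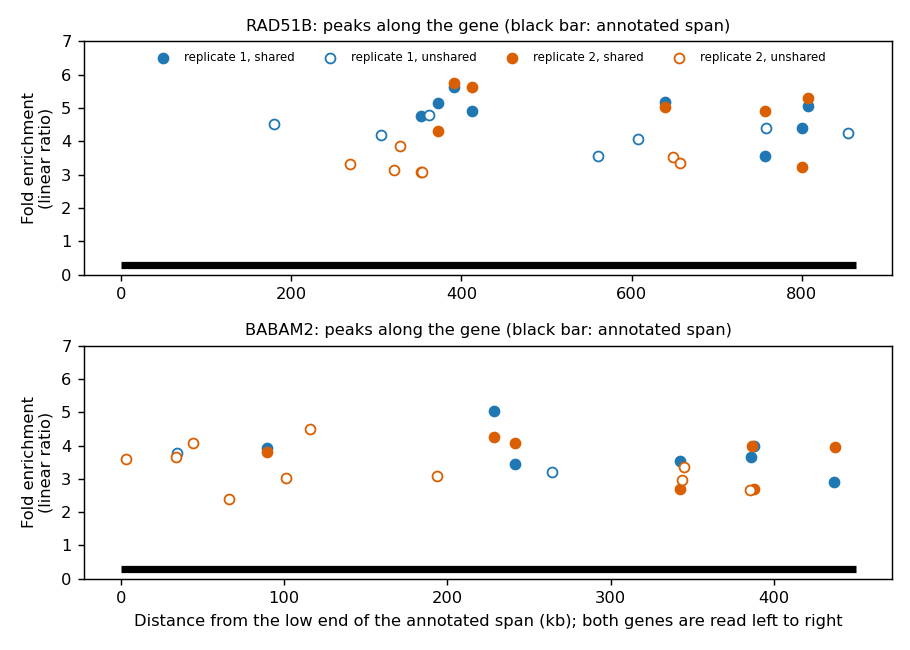
Fold enrichment (vertical axis, linear ratio) of every peak in RAD51B and BABAM2 by distance of its summit from the low end of the gene in kb, with filled points for shared and open points for unshared peaks. In RAD51B the shared peaks lie between 353 and 808 kb, and in BABAM2 they are spread from 89.3 to 437 kb.

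The other genes with regions in the body had 1 or 2 each. In the end-joining group, XRCC4 had 5.91 in replicate 1 and 4.29 in replicate 2 (5.10 ± 1.15, SD, n = 2), 18.57 kb downstream of its start. NHEJ1 had 2 regions, of 4.55 and 5.05 (4.80 ± 0.355) and of 3.80 and 3.51 (3.65 ± 0.204), at 18.1 and 35.1 kb downstream of a start. XRCC5, the Ku80 subunit gene, had 3.596 and 4.76 (4.18 ± 0.821), and each library had a further unshared peak in the gene, 4.56-fold in replicate 1 and 3.70-fold in replicate 2. XRCC6, the Ku70 gene, had a peak of replicate 1 alone of 4.81-fold. DCLRE1C, the Artemis nuclease gene, had a peak of replicate 1 alone of 4.26-fold. PRKDC, the gene of the DNA-dependent kinase, had 1 of replicate 2 alone of 4.21-fold.

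In the recombination group, MRE11 had a shared region 44.2 kb downstream of its start, of 4.97 and 4.53 (4.75 ± 0.311). RAD51C had one 10.8 kb downstream, of 4.73 and 4.12 (4.43 ± 0.432), each on 13 fragments. NBN and RAD51D had peaks of replicate 2 alone, of 3.83-fold and 4.26-fold, and RAD52 a peak in replicate 2 of 3.97-fold beside that at its inner start. In the signalling group, TP53BP1, the reader that holds back resection, had 4.76 and 4.82 (4.79 ± 0.0418, SD, n = 2), 69.6 kb downstream of its start on 13 and 16 fragments. Replicate 2 had a further unshared peak of 4.03-fold beside it. RNF168 had 2 peaks of replicate 2 and 0 of replicate 1.

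UIMC1, the ubiquitin-binding subunit RAP80, and FANCC had peaks of both libraries, but none overlapped. In UIMC1 the peaks of the libraries within the gene were at least 8.73 kb apart, and the peak of replicate 1 at the lower end lay 0.691 kb from a peak of replicate 2 beyond the window. Replicate 1 had peaks of 2.50-fold at the lower end and 3.42-fold near a start, and replicate 2 had 4.29-fold and 4.57-fold in the body. In FANCC replicate 1 had 3 peaks, of 3.59 to 4.51-fold, and replicate 2 had 1 of 4.19-fold. Such a pattern was seen in 2 of the 46 genes (4.35%) and in 2.88% of protein-coding genes. FANCL, the ligase subunit of the Fanconi core, had a single peak of replicate 2, of 3.65-fold.

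Over the 27 shared regions of the repair genes, fold enrichment was higher in replicate 1 in 14 and in replicate 2 in 13. The median was 4.398 in replicate 1 and 4.26 in replicate 2, against 4.11 and 4.095 over all 12590 shared regions, and the median width was 409 bp against 427 bp. A fold enrichment of at least 5 in both libraries was reached by 4 of the 27, the BABAM1 region and 3 in RAD51B, against 10.3% of all shared regions. For −log10 q of at least 5 in both libraries it was 10 of the 27, against 38.6%.

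Repair genes are long, with a median span of 74.4 kb against 24.2 kb for protein-coding genes, and long genes have more room for a region. A shared region anywhere in the span plus 1 kb was found in 13 of 46 genes (28.3%), against 24.4% of protein-coding genes. Among genes under 20 kb a region at an end was found in 3 of 7 against 9.04%, and a region in the body only in 0 of 7 against 4.44%. For 20 to 50 kb the counts were 0 of 10 against 7.61% at an end and 1 of 10 against 16.6% in the body only. For 50 to 100 kb they were 0 of 16 against 6.16% and 3 of 16 against 27.3%, and for 100 kb or more 2 of 13 against 4.57% and 4 of 13 against 41.5%. With both places joined, it was found in 3 of 7 genes under 20 kb (BABAM1, MDC1 and FANCG), against 13.5% of protein-coding genes of that class. It was found in 1 of 10 genes of 20 to 50 kb against 24.2%, in 3 of 16 of 50 to 100 kb against 33.5%, and in 6 of 13 of 100 kb or more against 46.0%. The interval of the shortest class (15.8 to 74.95%) lay above its background, but it rests in part on BABAM1, whose high rank was known when the list was made. Without BABAM1 the class held 2 of 6 genes (33.3%, 9.68 to 70.0), an interval that includes the background, and FANCG has its region nearer to VCP. In the other classes the background lay inside the interval. From its start, a repair gene had the nearest shared summit at a median of 68.2 kb, and a protein-coding gene at 59.3 kb.

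**Figure D5:**
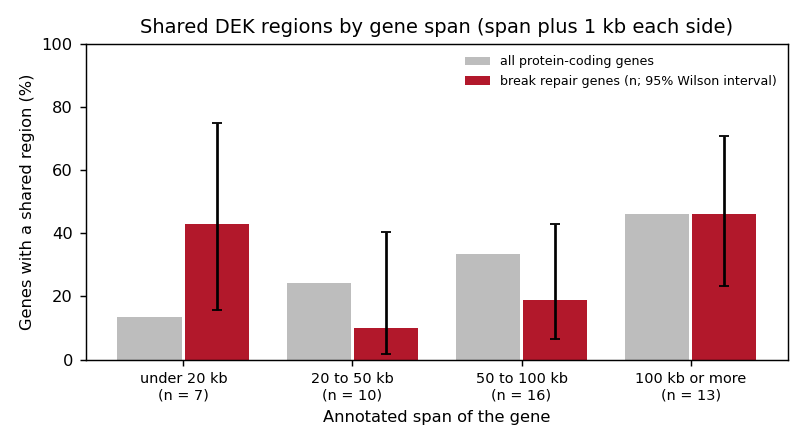
Percent of genes with a shared region in the span plus 1 kb (vertical axis) by class of annotated span, for all protein-coding genes (grey) and break repair genes (red, with 95% Wilson intervals and the number of genes in each class). Repair genes under 20 kb stand at 3 of 7 over a background of 13.5%, and the intervals of the 3 longer classes include the grey bars.

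Beyond the 46 genes, 63 further genes of the same pathways were listed, among them the RPA subunits, shieldin, the RAD9A, RAD1 and HUS1 clamp and the remaining Fanconi genes. A shared region lay at an end of 5 of the 63 (7.94%) and in the body only of 8 (12.7%), again near the backgrounds of 7.53% and 16.9%. FAAP24, a partner of FANCM, had 5.64 in replicate 1 and 5.498 in replicate 2 (5.57 ± 0.103, SD, n = 2), 94 bp upstream of its start and also at an end of CEP89. RNF169, which competes for the marks made by RNF168, had 4.86 and 4.85 (4.85 ± 0.00547), 82 bp upstream. ERCC4, the XPF nuclease gene, had 4.70 and 4.03 (4.36 ± 0.472), 173 bp upstream. PARP3 had 5.27 and 3.16 (4.21 ± 1.495), 339 bp upstream and also at an end of RRP9, and FAAP100 had 3.41 and 2.99 (3.20 ± 0.299), 1409 bp upstream of its given start. Of these regions FAAP24's reached 5-fold in both libraries, and the other 4 did not.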

How the data were processed

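Chromatin immunoprecipitation and sequencing of DEK in 786-O cells gave 2 libraries, each with its own peak list. Per the submitters' processing notes, the build was GRCh38 (hg38) and the tools, listed without roles, were cutadapt 1.18, Bowtie2 2.2.5, deepTools 3.5.1, ChIPseeker 1.32.1, MACS2 2.2.7.1 and DiffBind 3.6.5. Any control library used was not given in the sources used here. Lists deposited by the authors hold, for each peak, a score (10 times −log10 q as a whole number), the fold enrichment as a linear ratio, −log10 p, −log10 q (a negative log10 q-value, at least 1.309 and 1.303 in the libraries) and a summit offset. Peaks off chromosomes 1 to 22 and X, 113 and 123, were left out.

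Regions took the strongest peak of each library by fold enrichment, and a gene with several was ranked by the mean percentile. The summit pileup was solved as a whole number from fold enrichment, taken as (pileup + 1)/(background + 1), and the Poisson p, and met the deposited p within a relative 5e-05 in 100% of repair-gene peaks. The method was tried on data simulated from the same formula, which checks the solving step alone. It assumes pileups that were not rescaled, which the simulation cannot show. Spans came from the RefSeq table, and starts and sequences from RefSeq promoter windows (GRCh38.p14). Python 3.11.15, pandas 2.3.3, SciPy 1.17.1 and Biopython 1.88 were used. With 1 group there was no test between conditions, and lists are described beside all genes.

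The 46 genes, the groups, the 63 further genes and the motifs were chosen with earlier results of these data known. Named were all genes with a shared region at an end, the up to 12 highest of those with body regions, those with peaks of 1 library at an end, and those without a peak. Named after their values were seen were the other genes with unshared peaks. A gene of the further list is not reported here. Alternatives changed the window, the peak threshold, the matching of replicates, the placement and the libraries used.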

Additional observations from a re-analysis of the deposited data

How the results depend on the processing

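Fold enrichments were not put to a real trial: 26 of 46 recomputed values were those of the replicate left in, and the other 20, from stricter thresholds or the peak with the lowest p, were identical to the reported value. Counts moved. With −log10 q of at least 5, 2 genes (4.35%; BABAM1 and BRCA1) kept a region at an end against 564 protein-coding genes (2.82%), and 3 (6.52%; BABAM2, NHEJ1 and RAD51B) had one in the body only against 8.30%. With a fold enrichment of at least 5, 1 gene (2.17%; BABAM1) kept one at an end against 121 (0.606%), and 1 (2.17%; RAD51B) in the body only against 1.94%. At these thresholds 8 and 11 of the 13 genes had no region left. Windows of 3 kb gave 6 genes (13.0%) against 2749 (13.8%). Matching by summits within 100 bp gave 4 (8.70%) against 994 (4.98%), and 34.0% and 25.8% of repair-gene peaks were then shared. Any peak of a single library gave 8 to 10 genes at an end, 10 to 13 in the body only and 2180 to 2703 protein-coding genes at an end. With replicate 2 alone these were 21.7% against 13.5% at an end and 28.3% against 24.3% in the body only, and with replicate 1 alone 17.4% against 10.9%, and 21.7% against 21.7%. With each region counted only for the protein-coding gene of the nearest end, a choice made after seeing the data, BABAM1, MDC1 and POLQ remained, 3 genes (6.52%) against 1237 (6.19%). The cause of these moves was not tested. No paired analysis was possible because there is a single group. Pileups of 9 to 53 fragments limit how well a single peak is known.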
